A study of Mus musculus with 14 samples.

Results

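The genes described here are the long intergenic noncoding RNAs (lincRNAs) of mouse ventricle, a class of transcripts annotated as noncoding and as lying outside coding genes, though some members overlap a coding gene or are protein coding in RefSeq. They were the genes with the deposited biotype lincRNA that stood in both deposited tables with a mean of at least 20 reads over the 14 libraries, which 165 of the 22136 shared genes met, out of 1131 lincRNAs present in both tables. The members were chosen by this measured mean count, so their levels are a description and not a finding.

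The study asked how knockout of Rad, a small GTPase encoded by Rrad and known to damp L-type calcium current in heart muscle, acts in hearts under pressure load from transverse aortic constriction (TAC). The groups were 4 Rad KO TAC, 3 Rad KO sham, 4 WT TAC and 3 WT sham ventricle libraries, each from polyA-enriched RNA. For every library the labels state that tamoxifen followed TAC by 4 weeks, with harvest over 2 months past TAC and over 1 month past the knockout. Details not given in the sources used here include the driver of the recombinase, the deleted part of Rrad, age, sex and strain. The labels do not tie each library to its own animal, and p-values therefore reflect spread among these libraries that may be partly technical.

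Some lincRNAs act where they are made: Xist coats and silences an X chromosome, and Malat1 and Neat1 belong to nuclear speckles and paraspeckles. Others carry small nucleolar RNAs or microRNAs in their introns, or are transcribed away from the promoter of a coding gene. Meg3 and H19 are imprinted, and in mouse heart Chaer1, Bvht and Mhrt have been described as regulators of hypertrophy or cardiac lineage genes.

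Libraries held 14546176 to 23314792 counted reads, of which mitochondrially encoded genes took 20.1% to 22.0% in Rad KO TAC, 24.2% to 28.4% in Rad KO sham, 18.2% to 21.2% in WT TAC and 20.1% to 22.7% in WT sham. The counts of called lincRNAs given below were the same with mitochondrial genes left out of the fit. Rrad stood at 120 to 241 CPM (counts per 1000000 after TMM scaling) in Rad KO TAC libraries, 160 to 228 in Rad KO sham, 127 to 243 in WT TAC and 199 to 231 in WT sham. The targeted gene did not separate the labels (Rad KO against WT, log2 fold change -0.14 after TAC, edgeR adjusted p = 0.93, and -0.17 in sham, adjusted p = 0.944), and the knockout libraries are called the libraries labelled Rad KO throughout. Esr1, the estrogen receptor gene whose ligand-binding domain forms part of tamoxifen-inducible recombinases, parted libraries within a label. It stood at 336 to 2471 CPM in the 4 Rad KO TAC libraries, at 2004, 1.11 and 1929 CPM in the 3 Rad KO sham libraries, at 0.558 to 1.61 CPM in the 4 WT TAC libraries and at 1.27, 1513 and 2217 CPM in the 3 WT sham libraries. Rad KO sham 2 and WT sham 2 and 3 thus lay with the TAC libraries of the other label, against their own, and results below are also given without them. Cardiomyocyte markers such as Myh6 and Tnnt2 were abundant in every library.

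The members are of low abundance and dominated by a few genes. They took 0.213% to 0.291% of all counts in Rad KO TAC, 0.258% to 0.278% in Rad KO sham, 0.244% to 0.273% in WT TAC and 0.27% to 0.292% in WT sham. Malat1, 1700020I14Rik and 2900097C17Rik alone gave 43.2% to 52.1% of the member reads in a library. On the deposited FPKM scale, which divides by gene length, the median member level was 1.75, with a range of 0.176 to 104, and 110 members reached an FPKM of 1. Protein-coding genes past the same count minimum, 11978 in all, had a median FPKM of 4.23. The median member had a mean of 46.9 reads, and 80 members had a mean of at least 50.

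**Figure D1:**
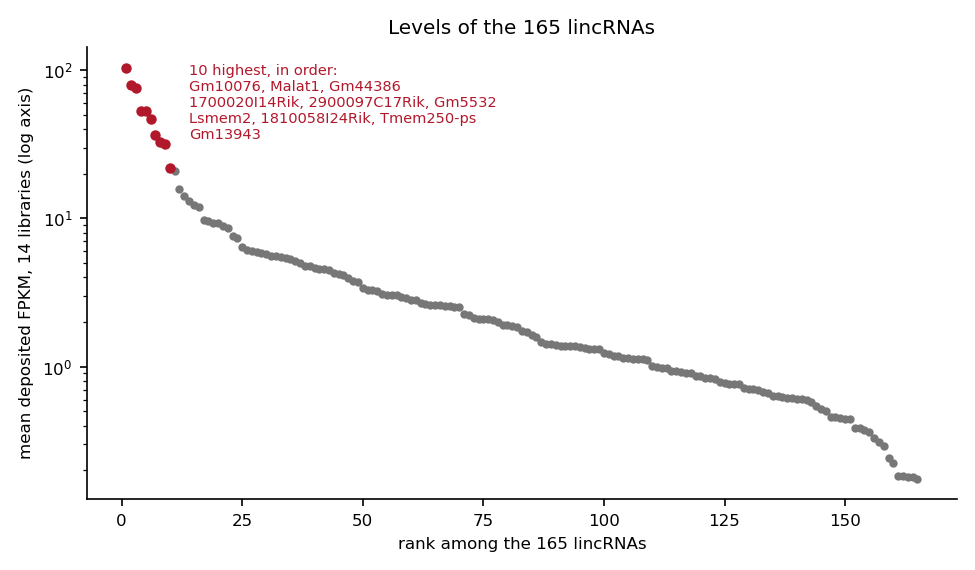
Mean deposited FPKM over the 14 libraries on a log axis against rank for the 165 lincRNAs, each point 1 gene, with the 10 highest in red. Gm10076 is highest at 104 FPKM and Malat1 follows at 79.1 FPKM, and the median member lies at 1.75 FPKM.

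By FPKM the order at the top was Gm10076 (104), Malat1 (79.1), Gm44386 (75.6), 1700020I14Rik (53.0), 2900097C17Rik (52.9), Gm5532 (46.9), Lsmem2 (36.5), 1810058I24Rik (32.7), Tmem250-ps (31.9) and Gm13943 (21.9). RefSeq names 1700020I14Rik Oip5os1, the RNA known as Cyrano that drives destruction of the microRNA miR-7, and 2900097C17Rik Norad, which binds Pumilio proteins in the cytoplasm. RefSeq annotates 9 of the 124 members it could be matched to as protein coding, among them Lsmem2, 1810058I24Rik and Tmem250-ps, and Gm10076 as a pseudogene. A pseudogene can share reads with its parent gene, so the level of Gm10076 is uncertain. Just inside the count minimum stood Gm26880 and Gm20735 (means of 20.1 reads) and 4732487G21Rik (20.6), and just outside it Gdap10, Gm36670 and Gm36372 (19.7 each).

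The members lie on 20 chromosomes, most often on chromosome 5 (16 members), 6 (13) and 11 (12), with 3 on X. Their gene models have a median length of 2206 bases, from 257 to 20771. In GENCODE M21, 97 members overlap no other gene, while the exons of 15 overlap those of a gene on the same strand and the exons of 35 those of a gene on the opposite strand. Use of strand in the counting is among the details that the sources do not state, and reads of such overlapping genes cannot be told apart. The median distance to the nearest coding gene was 7485 bases, and 25 members start within 1000 bases of a coding gene transcribed away from them.

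After TAC, lincRNAs moved in both directions with both labels in 1 contrast, and Gm39214 rose with the lowest adjusted p of all members. Malat1, Meg3, Lncpint, Chaer1 and Xist were among those that fell. In GENCODE M21 the exons of Malat1, Meg3 and Xist overlap those of other genes on both strands. Those of Lncpint do so on the opposite strand, and those of Chaer1 do not. A member is called changed where the Benjamini-Hochberg adjusted p over all genes tested, from edgeR's quasi-likelihood test, lay under 0.05. All 165 members were tested in every comparison. In the contrast that averages the TAC effects of both labels over 14 libraries, 31 members were called, 14 higher and 17 lower after TAC, beside 11.1% of all 14731 genes tested, which is 18.8% of the members. By direction, 8.48% of the members were called higher and 10.3% lower, beside 6.36% and 4.75% of all genes. Coding genes were called at 11.4%, and DESeq2 called 42 members, beside 14.5% of genes. The member median was a log2 fold change of -0.16, against 0.00 for all genes, and 99 members (60%) lay below 0, against 50.1% of all genes. In bulk tissue, fewer cells of a type and less RNA per cell cannot be told apart.

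Split by label, calls were fewer. In WT, 7 members were called after TAC (4.24%), beside 3.09% of 14323 genes. Of these, 4 were higher, beside 2% of genes, and 3 were lower, beside 1.08%. In the libraries labelled Rad KO, 2 members were called (1.21%), beside 1.69% of 14122 genes. Both were higher, beside 1.05% of genes. DESeq2 called 17 members in Rad KO, beside 5.34% of genes, and 18 in WT, beside 6.52%. The authors' deposited tables hold their own adjusted p for the same libraries. There, 18 members were past 0.05 in WT beside 3.75% of genes, and 14 in Rad KO beside 3.01%. These shares run over all 24279 WT and 23925 Rad KO genes deposited, with no count minimum. Members had to pass a minimum, so the shares are not like for like. TAC and sham libraries did not overlap in CPM for 36 members in Rad KO, beside 16.1% of genes, and for 40 members in WT, beside 16.8%. In Rad KO, 16 of these were higher (8.77% of genes) and 20 lower (7.37% of genes). In WT, 12 were higher (7.95% of genes) and 28 lower (8.87% of genes). Both TAC effects had the same sign for 123 of 165 members (74.5%), against 68.3% of the 13953 genes tested in both labels, and these effects share no library. With 7 libraries a label the calls within a label were fragile: of the 7 in WT, each was lost without WT sham 3, and 6 of them also without WT sham 2. Of the 2 in Rad KO, Gm39214 was lost without any 1 of the 3 sham libraries and Gm38534 in 6 of 7 such fits. WT sham 2 and 3 are the sham libraries of high Esr1 (1513 and 2217 CPM). The 4 WT TAC libraries held 0.558 to 1.61 CPM of Esr1 and WT sham 1 held 1.27. TAC against sham in WT thus runs largely along Esr1 as well, and TAC and Esr1 status cannot be fully told apart there.

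**Figure D2:**
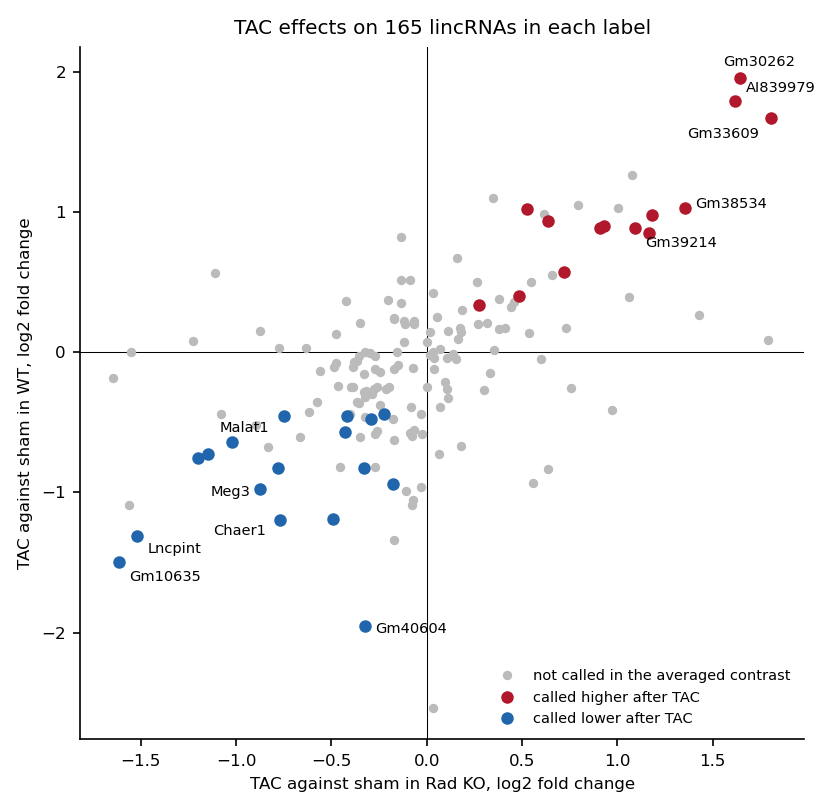
Log2 fold change of TAC against sham in Rad KO (x axis) and in WT (y axis) for 165 lincRNAs, each point 1 gene, with the 14 called higher (red) and the 17 called lower (blue) in the averaged contrast. All 31 called members have the same sign in both labels, which the averaged contrast favours, and Gm40604 is far from 0 in WT at -1.95 but not in Rad KO.

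Of the 31 called members, 18 had a mean of at least 50 reads, and 13 were called whichever library was left out. A fit without the 3 sham libraries of unlike Esr1 reused every TAC library and the other sham libraries. Directions of members called with all libraries were thus largely carried over into it. There all 31 kept their direction, with log2 fold changes 0.643 to 1.24 times those with all libraries, such as -0.80 for Malat1 and -0.85 for Gm12319. In that fit, which holds 2 Rad KO sham libraries and 1 WT sham library, 1 of them, Gm39214, was still called, and adjusted p over the 31 ran to 0.464 (edgeR). Some lists of cell type markers also moved with TAC in the averaged contrast, and others did not. Of 8 activated fibroblast markers such as Postn, 8 rose. Their summed level was 223 to 952 CPM in Rad KO TAC and 119 to 127 in Rad KO sham. In WT it was 351 to 1189 CPM after TAC and 112 to 249.3 in sham. Of 8 mural cell markers 2 fell. Their summed level was 770 to 1831 CPM in Rad KO TAC and 1730 to 2220 in Rad KO sham. In WT the mural sum was 864 to 1442 CPM after TAC and 1436 to 1856 in sham. Of 5 tested Schwann cell markers 3 fell, with the Schwann sum at 2.78 to 14.6 CPM in Rad KO TAC, 13.6 to 17.5 in Rad KO sham, 4.51 to 5.99 in WT TAC and 13.0 to 15.8 in WT sham. Of 5 atrial markers 2 were tested and 1 rose, with the sum at 152 to 1345 CPM in Rad KO TAC, 28.4 to 75.0 in Rad KO sham, 251 to 1724 in WT TAC and 43.3 to 73.2 in WT sham. Of 9 fibroblast markers 3 rose, with the sum at 2201 to 4575 CPM in Rad KO TAC, 2374 to 2780 in Rad KO sham, 2479 to 3749 in WT TAC and 2200 to 3055 in WT sham. Of 3 tested lymphocyte markers 1 rose, and of 10 cardiomyocyte markers 2 rose and 2 fell. Of 8 endothelial, 10 macrophage and 5 erythrocyte markers, 0 were called. No marker of these lists was at 0 in every library, and their part in the lincRNA changes was not tested.

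Among nuclear body RNAs, Malat1 fell and Neat1 was not called. Both were read from polyA-enriched RNA, which may miss forms without a polyA tail. Counts were per gene, so isoforms were not told apart. Malat1 stood at 218, 355, 619 and 364 CPM in the 4 Rad KO TAC libraries, against 819, 735 and 808 CPM in the 3 Rad KO sham libraries. It stood at 494, 437, 501 and 344 CPM in the 4 WT TAC libraries, against 635, 568 and 881 CPM in the 3 WT sham libraries. Within each label every TAC library lay below every sham library. The averaged log2 fold change of Malat1 was -0.84 (SE 0.18, edgeR adjusted p = 0.00724), with -1.02 in Rad KO (adjusted p = 0.085) and -0.64 in WT (adjusted p = 0.0806). Neat1, an RNA of paraspeckles, averaged 91.4 ± 49.99 CPM in Rad KO TAC and 121 ± 45.4 CPM in Rad KO sham (SD, n = 4 and 3). In WT it averaged 105 ± 44.5 CPM after TAC and 143 ± 6.69 CPM in sham, and its groups overlapped in both labels (averaged log2 fold change -0.43, SE 0.27, edgeR adjusted p = 0.339).

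Of the imprinted RNAs, Meg3 fell while H19 was not called. Meg3 is the maternally expressed RNA of the Dlk1-Dio3 cluster on chromosome 12. It stood at 2.25, 2.14, 2.39 and 2.48 CPM in Rad KO TAC, against 4.49, 3.803 and 4.45 CPM in Rad KO sham. In WT it stood at 1.498, 3.17, 2.73 and 2.05 CPM after TAC, against 2.81, 7.01 and 4.37 CPM in sham. The groups stood clear of each other in Rad KO and overlapped in WT, with an averaged log2 fold change of -0.93 (SE 0.20, edgeR adjusted p = 0.00922). H19, the maternal partner of Igf2, averaged 12.6 ± 5.18 CPM in Rad KO TAC and 15.8 ± 6.36 CPM in Rad KO sham (SD, n = 4 and 3), and 12.7 ± 4.35 CPM in WT TAC and 14.2 ± 4.12 CPM in WT sham. Of 7 tested genes of the imprinted list 2 fell, beside 4.75% of all genes, and 0 rose: Meg3 and Kcnq1ot1, which has another biotype (averaged log2 fold change -0.83, edgeR adjusted p = 0.00402). The list median was -0.39 on the log2 scale, beside 0.00 for all genes. This list and the lists below were chosen with earlier results of these data known, so their shares are a description and not a test.

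Of 15 tested hosts of small nucleolar RNAs, 3 rose in the averaged contrast and 0 fell, beside 6.36% of all genes called higher and 4.75% lower. The list median was 0.17 on the log2 scale, beside 0.00 for all genes. Among the 5 that are members only Snhg18 was called, and the other risers, Gas5 (log2 fold change 1.58, edgeR adjusted p = 0.0186) and Snhg4 (0.78, adjusted p = 0.0333), carry another biotype. Snhg18 stood at 7.51, 9.002, 7.73 and 6.60 CPM in Rad KO TAC, against 5.96, 4.20 and 3.93 CPM in Rad KO sham. It stood at 5.80, 9.35, 9.20 and 5.21 CPM in WT TAC, against 4.91, 5.53 and 4.56 CPM in WT sham. The groups overlapped in WT and not in Rad KO, with an averaged log2 fold change of 0.64 (SE 0.16, edgeR adjusted p = 0.0172) that lost its call without WT sham 3. The members Snhg6, Snhg12, Snhg20 and Epb41l4aos had log2 fold changes of 0.93, -0.33, -0.28 and 0.38, none of them called.

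Of 10 tested lincRNAs described in heart, 5 fell and 1 rose in the averaged contrast, beside 4.75% of all genes called lower and 6.36% higher. The list median was -0.61 on the log2 scale, beside 0.00 for all genes. Chaer1, which in mouse heart binds the Polycomb complex during hypertrophy, is a member of 33.0 mean reads and fell by 0.99 on the log2 scale (SE 0.25, edgeR adjusted p = 0.017). Its call was lost without Rad KO sham 3 or WT sham 3, and its CPM overlapped between TAC and sham in Rad KO. The others that fell were Malat1, Meg3, the myosin antisense transcript Mhrt (log2 fold change -0.96) and the microRNA host Carmn (-1.75). Pvt1, the neighbour of Myc, was the one that rose (1.38). Mhrt is of another biotype, and Carmn and Pvt1 are lincRNAs under the count minimum. Bvht, a mouse RNA described in cardiac lineage commitment, averaged 2.43 ± 0.923 CPM in Rad KO TAC and 4.14 ± 0.63 CPM in Rad KO sham (SD, n = 4 and 3), against 3.25 ± 1.07 CPM in WT TAC and 3.22 ± 1.02 CPM in WT sham. It was not called (averaged log2 fold change -0.38, SE 0.23, edgeR adjusted p = 0.309).

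Of 4 tested RNAs of the X inactivation list, 2 fell and 0 rose, beside 4.75% of all genes called lower, and the list median was -0.46 on the log2 scale, beside 0.00 for all genes. Xist was present in all 14 libraries, at 70.5, 118, 144 and 102 CPM in Rad KO TAC, against 249.1, 145 and 153 CPM in Rad KO sham. It stood at 106, 144, 118 and 73.9 CPM in WT TAC, against 131, 151 and 173 CPM in WT sham. The groups overlapped in WT, and in Rad KO the highest TAC library lay just below the lowest sham library. The averaged log2 fold change of Xist was -0.60 (SE 0.17, edgeR adjusted p = 0.0333), and the call was lost without Rad KO sham 1, Rad KO TAC 1, WT sham 2 or WT sham 3. Firre, of another biotype, had -0.72 (adjusted p = 0.00126), and the member Ftx, with 22.6 mean reads, had -0.25 and was not called.

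Of 7 tested genes of the list of other described lincRNAs, 2 rose and 2 fell, beside 6.36% and 4.75% of all genes. The list and all-gene medians were 0.01 and 0.00 on the log2 scale. Those that fell were Lncpint and Meg3, and Meg3 is also counted in the imprinted and heart lists. The lists share genes, so their counts are not separate. Lncpint, a p53-induced RNA in mouse, had 21.7 mean reads and fell by 1.42 on the log2 scale (SE 0.31, edgeR adjusted p = 0.00918), a call kept in all 14 fits that each left out 1 library. It was also 1 of 2 that fell among 6 tested hosts of microRNAs, with Carmn, where 0 rose and the list median was -0.07 on the log2 scale, beside 4.75% of all genes called lower. Morrbid (Gm14005), which in mouse myeloid cells represses Bcl2l11, was not called (log2 fold change 0.41, edgeR adjusted p = 0.167). Cyrano (1700020I14Rik) stood at 436, 527, 530 and 400 CPM in Rad KO TAC, against 391, 416 and 367 CPM in Rad KO sham. It stood at 529, 424, 524 and 480 CPM in WT TAC, against 462, 354 and 353 CPM in WT sham. TAC and sham libraries overlapped in both labels, and the log2 fold change of 0.30 (SE 0.09, edgeR adjusted p = 0.0461) was called in 3 of those 14 fits. Norad (2900097C17Rik) averaged 263 ± 27.2 CPM in Rad KO TAC and 256 ± 3.40 CPM in Rad KO sham (SD, n = 4 and 3), and 262 ± 29.0 CPM in WT TAC and 263 ± 20.4 CPM in WT sham. Its averaged log2 fold change was 0.01 (SE 0.07, edgeR adjusted p = 0.93).

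**Figure D3:**
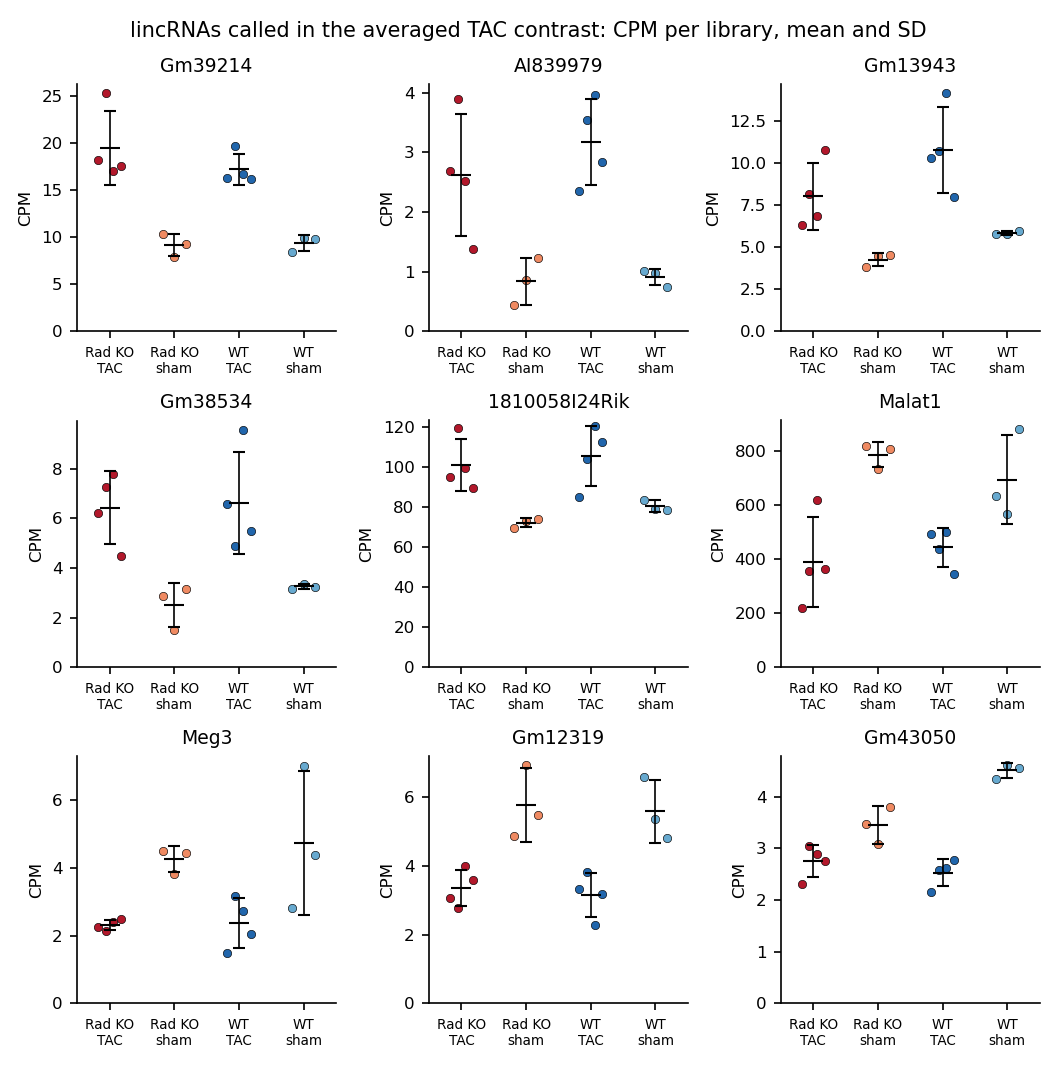
CPM per library (points) with mean and SD (black bars) for 9 lincRNAs called in the averaged TAC contrast, in Rad KO TAC, Rad KO sham, WT TAC and WT sham from left to right, 4 TAC and 3 sham libraries per label. Gm39214, AI839979, Gm13943, Gm38534 and 1810058I24Rik have every TAC library above every sham library of their label, and Meg3 in WT is the single case among these 9 where TAC and sham overlap.

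The clearest risers carry only a model number or clone name and have no role known with certainty. Gm39214 (chromosome 8, positions 85730816 to 85765095, plus strand, mm10) stood at 18.2, 25.4, 17.004 and 17.5 CPM in Rad KO TAC, against 10.3, 7.93 and 9.29 CPM in Rad KO sham. It stood at 16.3, 19.7, 16.8 and 16.2 CPM in WT TAC, against 8.47, 9.92 and 9.81 CPM in WT sham. Every TAC library lay above every sham library. The log2 fold change was 1.09 in Rad KO (SE 0.17, edgeR adjusted p = 0.0185), 0.88 in WT (SE 0.13, adjusted p = 0.00947) and 0.98 averaged (SE 0.11, adjusted p = 0.00034). Without the 3 sham libraries of unlike Esr1 the averaged adjusted p was 0.0252, while within WT and within Rad KO alone no member was called without them. Gm39214 overlaps exons of Itfg1 on the opposite strand, and Itfg1 had an averaged log2 fold change of 0.01 (adjusted p = 0.924).

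Gm13943, of 343 bases on chromosome 2, stood at 6.32, 8.16, 6.88 and 10.8 CPM in Rad KO TAC, against 3.83, 4.46 and 4.51 CPM in Rad KO sham. It stood at 10.3, 10.7, 14.2 and 7.99 CPM in WT TAC, against 5.79, 5.81 and 5.998 CPM in WT sham. Within each label the groups stood clear of each other, with log2 fold changes of 0.91 in Rad KO (edgeR adjusted p = 0.066) and 0.89 in WT (adjusted p = 0.0354). Gm38534 on chromosome 11 was at 6.196, 7.25, 7.80 and 4.47 CPM in Rad KO TAC, against 2.87, 1.51 and 3.16 CPM in Rad KO sham. In WT, Gm38534 was at 6.58, 4.89, 9.54 and 5.48 CPM after TAC, against 3.16, 3.36 and 3.25 CPM in sham. Its groups did not overlap in either label, and it was called in Rad KO (log2 fold change 1.36, SE 0.29, edgeR adjusted p = 0.0493) and not in WT (1.03, adjusted p = 0.053). The difference between those effects was 0.32 (edgeR adjusted p = 0.979).

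Larger folds were found at lower counts. AI839979, with 33.6 mean reads, had 1.38 to 3.89 CPM in Rad KO TAC and 0.442 to 1.23 in Rad KO sham, and 2.34 to 3.96 in WT TAC and 0.75 to 1.01 in WT sham. Its averaged log2 fold change of 1.70 (SE 0.26, edgeR adjusted p = 0.00123) was called in every fit that left out 1 library. Gm33609 averaged 6.25 ± 3.17 CPM in Rad KO TAC and 1.79 ± 0.763 CPM in Rad KO sham (SD, n = 4 and 3), and 8.38 ± 3.45 CPM in WT TAC and 2.57 ± 1.84 CPM in WT sham. Its log2 fold change was 1.74 (SE 0.36, edgeR adjusted p = 0.00658), with overlap in Rad KO alone. The others called higher were Gm30262 (log2 fold change 1.80), Gm30085 (1.07), 2310020H05Rik (1.01), Gm33424 (0.91), Gm12295 (0.78) and Gm5463 (0.77), and each lost its call without at least 1 library. Gm12295, 7665 bases from Myocd, the gene of the cardiac coactivator myocardin, was also called in WT (0.93, edgeR adjusted p = 0.0344).

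1810058I24Rik, which RefSeq annotates as protein coding, rose by less and with a small spread. It stood at 95.0, 120, 99.4 and 89.6 CPM in Rad KO TAC, against 69.5, 72.8 and 73.8 CPM in Rad KO sham. It stood at 85.1, 104, 120 and 113 CPM in WT TAC, against 83.6, 79.1 and 78.2 CPM in WT sham. All TAC libraries exceeded all sham libraries, and the averaged log2 fold change was 0.44 (SE 0.08, edgeR adjusted p = 0.00394).

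Several members fell that are on none of the lists of described RNAs above. Gm12319, of 357 bases, averaged 3.35 ± 0.536 CPM in Rad KO TAC and 5.76 ± 1.07 CPM in Rad KO sham (SD, n = 4 and 3), and 3.15 ± 0.637 CPM in WT TAC and 5.58 ± 0.906 CPM in WT sham. Groups did not overlap, and the averaged log2 fold change was -0.81 (SE 0.15, edgeR adjusted p = 0.00331). Gm40604, with 34.9 mean reads, fell in WT by 1.95 on the log2 scale (SE 0.30, edgeR adjusted p = 0.0118). Its WT libraries ran from 0.614 to 1.06 CPM after TAC and from 2.63 to 4.39 CPM in sham, while its Rad KO libraries overlapped, with 0.712 to 3.09 CPM after TAC and 1.05 to 3.31 CPM in sham. Gm4544 (-1.09) and Gm49477 (-0.94), both on chromosome 15, also fell in WT. Gm40604 (-1.14) and Gm49477 (-0.57) were called lower in the averaged contrast too, and Gm4544 was not. Within Rad KO the lowest counts of Gm40604 and Gm4544 were in TAC 2 (11 and 35 reads) and sham 2 (16 and 42 reads). These libraries had the lowest Esr1 of their groups, at 336 and 1.11 CPM. All WT TAC libraries were low in Esr1 too, but so was WT sham 1, the deepest library, with 60 and 106 reads. The part of Esr1 in these falls was not tested. The remaining members called lower in the averaged contrast were Gm10635 (-1.56), 6720427I07Rik (-0.98), Eprn (-0.94), Gm28979 (-0.85), Gm43050 (-0.58), Prr33 (-0.51), 5031425E22Rik (-0.44), Gm34934 (-0.39) and A430046D13Rik (-0.34). Of the 14 fits that each left out 1 library, Eprn was called in 4, 6720427I07Rik in 7, Gm40604 in 8 and A430046D13Rik in 9. Prr33 was called in 10, Gm10635 and Gm49477 in 11 and Gm28979 in 12.

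Of 25 members whose start lies within 1000 bases of a coding gene transcribed the other way, 6 were called in the averaged contrast, beside 18.8% of all members and 11.1% of all genes, and 13 of the 25 pairs had the same sign. Gm43050 and Tbx5, a T-box factor of cardiac conduction and chamber identity, start 748 bases apart, and both fell. Gm43050 stood at 2.32, 3.04, 2.89 and 2.75 CPM in Rad KO TAC, against 3.46, 3.08 and 3.805 CPM in Rad KO sham. In WT it stood at 2.15, 2.58, 2.62 and 2.77 CPM after TAC, against 4.34, 4.62 and 4.56 CPM in sham. TAC lay below sham in both labels, by a wide gap in WT and a narrow one in Rad KO. The averaged log2 fold changes were -0.58 for Gm43050 (SE 0.13, edgeR adjusted p = 0.00923) and -0.61 for Tbx5 (SE 0.12, adjusted p = 0.00586).

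Gm34934 and Samd4, an RNA-binding translational repressor, start 97 bases apart and went in opposite directions. Gm34934 stood at 9.26, 10.2, 10.4 and 9.01 CPM in Rad KO TAC, against 12.4, 11.7 and 11.7 CPM in Rad KO sham, and at 9.57, 8.28, 7.59 and 11.0 CPM in WT TAC, against 13.4, 13.1 and 11.6 CPM in WT sham. The groups did not overlap within a label. Its averaged log2 fold change was -0.39 (SE 0.09, edgeR adjusted p = 0.0143), and that of Samd4 was 0.48 (SE 0.12, adjusted p = 0.0148). The other called members of such pairs had partners that were not called: Gm12319 with Eno3 (-0.26), 5031425E22Rik with Kmt2e (-0.25), A430046D13Rik with Myl6b (0.56) and Snhg18 with Sema5a (-0.21). Gm17501, 331 bases from Ccn1, a matricellular protein gene, missed the threshold at 1.01 (edgeR adjusted p = 0.0634) where Ccn1 rose by 0.89. Over the 131 members with a tested nearest coding gene, 74 pairs (56.5%) had the same sign and 15 of the coding genes (11.5%) were called, beside 11.4% of all coding genes tested.

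**Figure D4:**
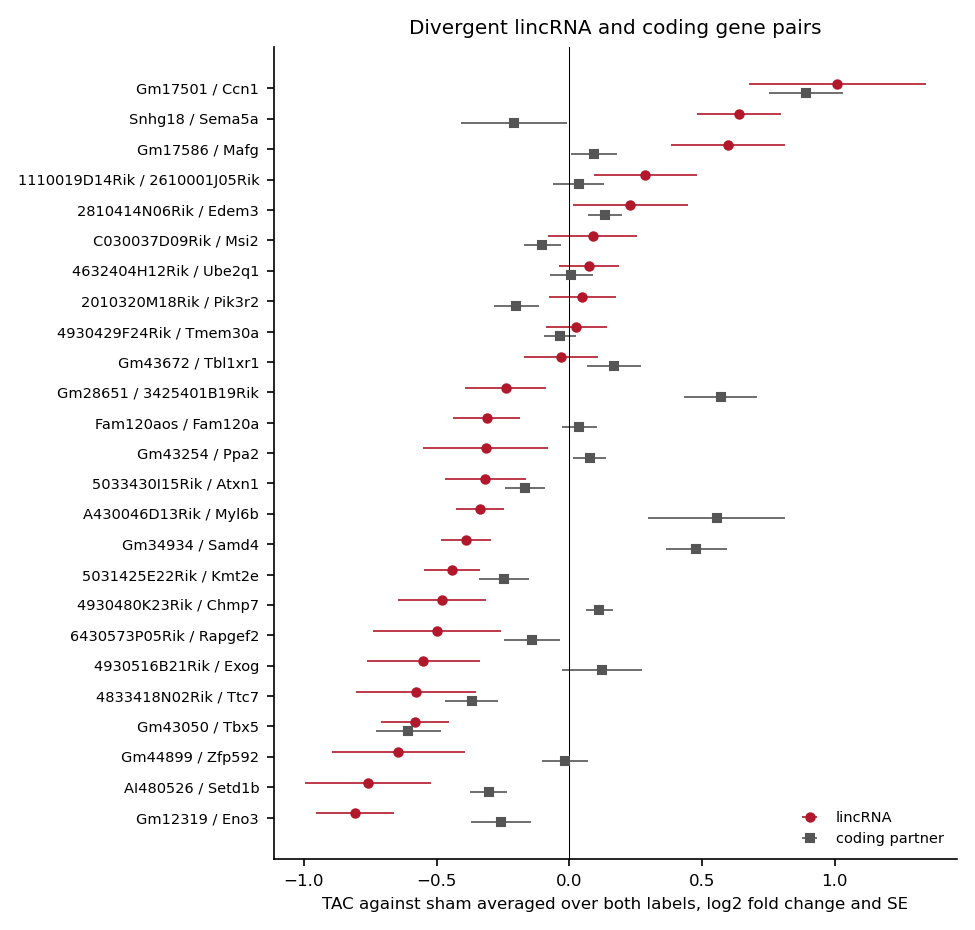
Averaged TAC log2 fold change with its standard error for 25 lincRNAs (red circles) and the coding gene that starts within 1000 bases and is transcribed away (grey squares), ordered by the lincRNA. Gm43050 and Tbx5 coincide near -0.6, and Gm34934 and Samd4 lie on opposite sides of 0.

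RefSeq promoters, 250 bases before to 50 after the annotated start in GRCm38.p6, lay within 100 bases of the deposited start for 14 of the 32 members called in any TAC comparison. The 5 below belong to the riser AI839979, the called snoRNA host Snhg18, the abundant Malat1 and the imprinted Meg3, which fell, and Gm34934, picked after its values were seen because it starts 97 bases from Samd4. Capitals mark matches to 6 motifs, each searched on both strands. The AP-1 motif was spelled TGANTCA. The M-CAT motif was spelled GGAATG. The GATA motif was spelled AGATAA. The E-box was spelled CACGTG. The GC box was spelled GGGCGG. The TATA box was spelled TATAAA.
AI839979 promoter, chr5:31571348-31571647, minus strand: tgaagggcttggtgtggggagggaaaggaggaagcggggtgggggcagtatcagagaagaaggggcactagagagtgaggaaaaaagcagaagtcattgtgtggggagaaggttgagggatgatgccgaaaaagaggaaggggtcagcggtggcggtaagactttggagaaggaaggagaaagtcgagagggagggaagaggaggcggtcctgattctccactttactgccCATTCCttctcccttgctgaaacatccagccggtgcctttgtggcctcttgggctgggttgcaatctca
Snhg18 promoter, chr15:32244613-32244912, minus strand: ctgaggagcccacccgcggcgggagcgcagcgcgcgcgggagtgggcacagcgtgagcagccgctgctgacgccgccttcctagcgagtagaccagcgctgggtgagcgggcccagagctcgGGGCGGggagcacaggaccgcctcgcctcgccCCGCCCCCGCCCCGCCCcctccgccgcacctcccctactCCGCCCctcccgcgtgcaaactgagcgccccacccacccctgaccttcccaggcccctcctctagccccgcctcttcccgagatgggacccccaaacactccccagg
Malat1 promoter, chr19:5802623-5802922, minus strand: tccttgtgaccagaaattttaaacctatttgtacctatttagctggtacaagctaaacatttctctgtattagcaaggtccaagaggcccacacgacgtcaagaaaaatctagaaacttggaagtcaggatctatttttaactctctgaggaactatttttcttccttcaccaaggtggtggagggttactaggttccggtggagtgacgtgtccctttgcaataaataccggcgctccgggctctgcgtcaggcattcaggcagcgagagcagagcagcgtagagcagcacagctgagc
Meg3 promoter, chr12:109540746-109541045, plus strand: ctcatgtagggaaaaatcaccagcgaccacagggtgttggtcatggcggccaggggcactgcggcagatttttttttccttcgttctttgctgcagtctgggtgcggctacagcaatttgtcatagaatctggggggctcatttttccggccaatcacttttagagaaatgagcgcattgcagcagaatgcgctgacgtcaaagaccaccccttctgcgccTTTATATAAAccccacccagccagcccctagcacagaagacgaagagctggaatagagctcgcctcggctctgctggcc
Gm34934 promoter, chr14:46882750-46883049, minus strand: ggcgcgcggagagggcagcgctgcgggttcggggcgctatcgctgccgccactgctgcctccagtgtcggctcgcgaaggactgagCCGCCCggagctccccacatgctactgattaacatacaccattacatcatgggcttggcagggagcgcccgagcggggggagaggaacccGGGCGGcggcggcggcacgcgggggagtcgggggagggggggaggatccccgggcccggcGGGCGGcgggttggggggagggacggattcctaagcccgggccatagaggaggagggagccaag
The AI839979 window holds an M-CAT match on the opposite strand, the motif bound by TEAD factors. M-CAT was found in 4 of the 14 windows, beside 14.7% of all 32851 RefSeq promoters. The GC box was in 4 of the 14, beside 35.7%, with 5 matches in Snhg18, of which 1 pair overlaps by 1 base, and 3 in Gm34934. The TATA box was in 2 of the 14, Meg3 and Xist, beside 13.6%, and in Meg3 the matches on both strands overlap. AP-1, GATA and the E-box were in 0 of the 14, beside 7.81%, 11.2% and 7.15%, and Malat1 held none of the 6. These matches describe letters within the window and nothing more.

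Between the labels, no lincRNA was called. After TAC, 0 of 165 members were called for Rad KO against WT by edgeR, beside 0.0136% of 14731 genes. At an unadjusted p under 0.05 there were 16 members (9.7%), beside 7.76% of genes, and DESeq2 called 0, beside 0.652% of genes. In sham, edgeR called 0 members, beside 0% of genes. Here 6 members had an unadjusted p under 0.05 (3.64%), beside 5.75%, and DESeq2, which gave an adjusted p for 49 members, called 0, beside 0.172%. The member medians were 0.01 after TAC and -0.01 in sham on the log2 scale, beside 0.00 for all genes in both. As Rrad did not differ between the labels and Esr1 parted the sham groups, what these contrasts compare beyond the labels cannot be told apart.

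The members of smallest p after TAC were D630024D03Rik (log2 fold change 1.46, edgeR adjusted p = 0.323), Gm4544 (0.87), Gm49477 (0.61) and 5430431A17Rik (-1.95). D630024D03Rik, a member of low counts, ranged from 2.201 to 3.56 CPM in Rad KO TAC and from 0.521 to 1.45 CPM in WT TAC, without overlap. Gm4544 stood at 4.94, 2.27, 4.60 and 4.13 CPM in Rad KO TAC, against 1.95, 2.31, 2.84 and 1.58 CPM in WT TAC, which overlap by 1 Rad KO library. Gm49477 stood at 15.6, 13.1, 21.2 and 21.8 CPM in Rad KO TAC, against 10.9, 11.5, 8.48 and 16.2 CPM in WT TAC, which also overlap. In sham the smallest p belonged to 4930429F24Rik (log2 fold change 0.60, edgeR adjusted p = 0.73), at 19.96, 13.6 and 15.7 CPM in Rad KO sham and 11.6, 10.03 and 10.9 CPM in WT sham, followed by 4933404O12Rik (-1.19), BC043934 (-1.15) and 4632415L05Rik (0.38).

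The difference of the TAC effects, Rad KO minus WT, was called for 0 members by edgeR, beside 0% of genes. With an unadjusted p under 0.05 there were 11 members (6.67%), beside 5.12%, and DESeq2 called 0, beside 0.0543%. The smallest p belonged to 4933404O12Rik (log2 difference 1.46, edgeR adjusted p = 0.725), AL805899.2 (1.49), 4833418N02Rik (-1.31) and Gm19277 (-1.56). AL805899.2 stood at 9.33, 11.7, 8.41 and 10.9 CPM in Rad KO TAC and 9.35, 3.28 and 7.996 CPM in Rad KO sham, and at 4.88, 2.31, 7.75 and 4.95 CPM in WT TAC and 7.37, 12.5 and 8.87 CPM in WT sham. TAC and sham overlapped for AL805899.2 in Rad KO and in WT.

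A set of members varied most between libraries of the same group. The pooled within-group SD of log2 CPM had a median of 0.38 over the members, against 0.21 over 13126 coding genes. The 2 sets were not matched for read count, and the median member had 46.9 reads. The part of low counts in this gap was not tested. It was largest for AC166110.4 (2.82), Gm26880 (1.84), Gm10076 (1.37), 2610035D17Rik (1.17) and Snhg6 (1.16). AC166110.4 had 32, 0, 45 and 40 reads in Rad KO TAC and 29, 24 and 28 in Rad KO sham, and 1, 1, 26 and 0 reads in WT TAC and 0, 89 and 36 in WT sham. It was thus near 0 in 1 Rad KO TAC library, 3 WT TAC libraries and 1 WT sham library, and clearly present in the rest.

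Gm10076 had 36.6, 31.3, 17.5 and 23.4 CPM in Rad KO TAC and 8.76, 38.3 and 103 CPM in Rad KO sham, and 28.4, 21.6, 35.3 and 96.7 CPM in WT TAC and 106, 7.18 and 9.75 CPM in WT sham. Its highest libraries belong to 3 different groups. Snhg6 had 4.76, 2.40, 8.35 and 1.03 CPM in Rad KO TAC and 1.10, 1.31 and 1.16 CPM in Rad KO sham, and 0.586, 7.85, 6.25 and 4.09 CPM in WT TAC and 4.12, 5.30 and 4.00 CPM in WT sham. Low values filled Rad KO sham and also occurred in single libraries of both TAC groups.

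**Figure D5:**
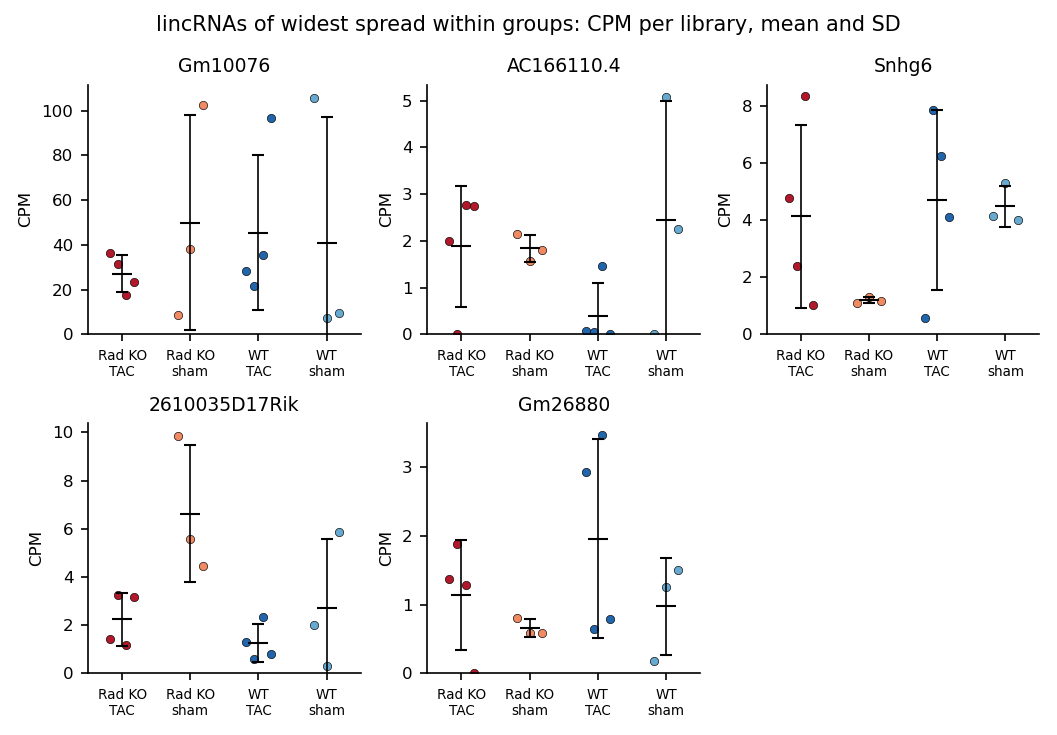
CPM per library (points) with mean and SD (black bars) for the 5 lincRNAs of widest spread within groups, in Rad KO TAC, Rad KO sham, WT TAC and WT sham from left to right. Gm10076 reaches 103, 96.7 and 106 CPM in 3 libraries of 3 different groups, and AC166110.4 is at or near 0 in 5 libraries.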

How the data were processed

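PolyA-enriched ventricle RNA was sequenced in 14 libraries of 4 groups. The deposited data are 1 table per label, and HISAT2, DESeq2, edgeR and mm10 are named without role or version per the submitters' processing notes. Per the file headers the deposited tables hold raw read counts, a signal of counts divided by a size factor set within each table, FPKM, gene lengths, and the authors' log2 fold changes and p-values of TAC against sham. Not given in the sources used here: the read counter, its strand setting and the annotation release.

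Counts were tested with edgeR 4.0.16 (R 4.3.3) after TMM normalization and a filterByExpr minimum count of 10, by quasi-likelihood F-tests, Benjamini-Hochberg adjustment over all genes and a threshold of 0.05. TAC effects used the 7 libraries of a label, and the other contrasts all 14 libraries as 4 groups over genes shared by the tables, since the tables were normalized separately. SE is the log2 fold change over the square root of F. CPM used TMM over 14 libraries, and log2 CPM a pseudocount of 0.5. Fits were tested on simulated data. DESeq2 1.42.0 and other settings were tried as alternatives.

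Named are the called members (at most 12 per direction by size, others by value only), the 4 of smallest p where none was called, the 10 of highest FPKM, the 5 of widest spread and the listed described RNAs. Prr33, 5031425E22Rik, Gm34934, A430046D13Rik and the divergent pairs fall outside this rule and were picked after their values were seen. Of the promoters in the naming rule a subset is shown. Members and lists were chosen with earlier results of these data known. Neighbours came from GENCODE M21 (GRCm38). RefSeq names matched 124 members, 6 by synonym. Libraries with the same number in different groups correlated at -0.14 to 0.14 in their deviations, so the numbers do not pair them. No library pair within a group agreed within sampling noise. Reads carry no molecular identifiers.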

Additional observations from a re-analysis of the deposited data

Results flagged for a closer look

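In groups of 4 libraries, 9 values among 57 named members lay far from the other 3 by Dixon's criterion, over 114 groups tested, and chance alone gives such a value in about 1 in 20 groups. In Rad KO TAC 2 the highest values of the group were found for Gm12295 (33.0 CPM), Gm39214 (25.4 CPM), Gm14005 (2.53 CPM) and 4732487G21Rik (1.68 CPM). Gm39214 kept its averaged call without that library. In WT TAC 1 the highest values were those of Gm19277 (3.32 CPM) and 2310020H05Rik (2.87 CPM), and the lowest that of BC043934 (1.24 CPM). In WT TAC 3 the highest were Gm12295 (16.5 CPM) and AC166110.4 (1.45 CPM). Gm12295 lost its averaged call without WT TAC 3 and kept it without Rad KO TAC 2. What sets these libraries apart was not tested.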

How the results depend on the processing

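Counts of called members moved with tool, filter and libraries. Except for DESeq2, no share of all genes stands beside these counts, so they do not set lincRNAs apart from other genes. With DESeq2, 18 members were called in WT (beside 6.52% of genes), 17 in Rad KO (5.34%) and 42 in the averaged contrast (14.5%). Without a filter on low counts there were 11 in WT and 11 in Rad KO, and the model of 14 libraries gave 4 in Rad KO. Leaving out 1 library at a time gave 0 to 8 in WT (0 without WT sham 3, 1 if WT sham 2 and 3 if WT TAC 2 was dropped), 0 to 8 in Rad KO (0 without Rad KO sham 1 or 2, 1 without Rad KO sham 3, Rad KO TAC 1 or Rad KO TAC 2, 8 without Rad KO TAC 4) and 15 to 36 averaged (15 without WT sham 3). Without the sham libraries of unlike Esr1 the counts were 0 in WT, 0 in Rad KO and 1 averaged, from fits with 1 WT and 2 Rad KO sham libraries. The 31 averaged log2 fold changes were then 0.643 to 1.24 times those with all libraries, and within WT that of Gm39214 was 1.03 and that of Gm4544 -1.09. With all libraries, called members with no overlapping gene numbered 4 in WT, 1 in Rad KO and 19 in the averaged contrast. Of the averaged calls with all libraries, 18 had a mean of at least 50 reads. The replicate block gave 8 calls in WT, 6 in Rad KO and 32 averaged, although the numbers do not pair the libraries. DESeq2 size factors or leaving out mitochondrial genes changed none of these counts. The label contrasts and the difference stayed at 0 calls under every alternative run. No named member changed direction past the threshold. Depth is a limit here, with 46.9 reads per library for the median member.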
